A study of Mus musculus with 5 samples.

Results

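Genes of the killer cell lectin-like receptor type were examined in ChIPseq peak lists of acetylated histones from T_M cells. They were Klrg1, Klrk1, Klrd1, Klrc1, Klrc2, Klrb1c and Cd69, 7 of the 21911 protein-coding genes of the GENCODE annotation of mouse GRCm38. All 7 lie on chromosome 6, and a peak was counted at a gene where at least 1 bp of it lay in the gene body or within 10 kb of it. The members were chosen by gene name, with earlier results of these data known. T_M cells are made by activating CD8+ T cells and keeping them in IL-15, which drives them toward a memory type. The study describes this culture for OT-I cells, whose transgenic receptor recognises an ovalbumin peptide, and elsewhere for splenic T cells, and which of them gave these libraries is not clear from the labels. The 5 libraries were 2 of WT cells (replicates 1 and 2) and 3 of TPdh-/- cells (replicates 1, 2 and 3). TPdh-/- mice carry the floxed allele B6.129P2-Pdha1tm1ptl/J together with B6.Cg-Tg(Cd4-cre)1Cwi/BfluJ, so that Cre driven from Cd4 deletes Pdha1, a subunit gene of the pyruvate dehydrogenase complex, in CD4+ and CD8+ T cells alike. Male and female mice aged 8 to 12 weeks were used, and the genotype of the WT mice at the Cre transgene is not given in the sources used here. The antibody was raised against acetylated lysine of histones, whereas the sample labels name lysine 18. The labels do not tell whether replicates were separate animals, so spread between libraries may be technical.

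Pyruvate dehydrogenase turns pyruvate into acetyl-CoA, the donor of acetyl groups to histones, and the libraries compare chromatin acetylation with and without it. Acetylated histones mark active promoters and enhancers. Most of the genes examined encode C-type lectin-like receptors that natural killer cells carry and that CD8+ T cells gain after activation or with memory. Klrk1 encodes NKG2D, an activating receptor for stress-induced ligands related to MHC class I. Klrd1 encodes CD94, which pairs with the inhibitory NKG2A of Klrc1 or the activating NKG2C of Klrc2 to bind the non-classical MHC class I molecule Qa-1. Klrb1c encodes NK1.1, an activating receptor, and Klrg1 is an inhibitory receptor for cadherins that marks terminal effector cells. Cd69 encodes an early activation marker that retains cells in tissue by removing the sphingosine phosphate receptor S1pr1 from the surface. All of the genes but Klrg1 sit in the natural killer gene complex, and Klrg1 lies apart from them, several megabases nearer the centromere.

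The lists differed in length, with 15962 and 8859 peaks in WT replicates 1 and 2 and 4920, 5419 and 9418 in TPdh-/- replicates 1, 2 and 3. WT replicate 1 stood apart as the longest list and its values are given separately below wherever a result rests on it. The number of reads behind each list is unknown. Of 7 CD8 T cell markers, 7, 6, 3, 6 and 6 had a peak by the same rule in WT replicates 1 and 2 and TPdh-/- replicates 1, 2 and 3. Of all protein-coding genes, 54%, 36.4%, 23.2%, 24.6% and 39.2% had one in that order. Cd8b1, Trac and Lat were called in all 5 libraries and Cd8a in WT replicate 1 alone. The share of other cells in a library and the acetylation per cell cannot be told apart in such bulk chromatin.

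Klrd1, Klrk1 and Cd69 had a peak in all 5 libraries, Klrb1c in 2, Klrc2 in 1, and Klrg1 and Klrc1 in none. Of all protein-coding genes, 17.1% had a peak in all 5 libraries and 43.9% in none. No member was called in both WT lists and missed in all TPdh-/- lists, a pattern seen in 2.92% of all protein-coding genes, and none in every TPdh-/- and no WT library, which holds for 0.00456%. By library, the number of the 7 genes called was 4 and 3 for WT replicates 1 and 2, where the background shares were 54% and 36.4%. In TPdh-/- replicates 1, 2 and 3 the numbers were 3, 4 and 4, against 23.2%, 24.6% and 39.2% of all protein-coding genes. The WT mean was 3.5 ± 0.707 genes (SD, n = 2) and the TPdh-/- mean 3.67 ± 0.577 (SD, n = 3), a difference smaller than either spread. Its sign was not stable, with a WT minus TPdh-/- difference of 1.5 genes when only peaks with a −log10 q of 5 or more were kept and of -0.833 with lists of equal length.

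The peaks merged into 8 regions, of which 3 were called in all 5 libraries. They lay about 9 kb upstream of Cd69, at the 5′ end of Klrd1, and between the 3′ ends of Klrd1 and Klrk1. The start site of Cd69 was called in 4 libraries and that of Klrk1 in 3. Reads of 51 bases could be placed in these regions, since 91.9% to 100% of the words of that length in each of the 8 occurred once in GRCm38.

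To show the sequence that all 5 libraries had under a peak, the central 300 bases of the stretch common to the 5 peaks are given for these 3 regions, read from GRCm38 on the plus strand in lower case, with matches to searched motifs in capitals. The stretch upstream of Cd69 runs from 129284981 to 129285518, that at Klrd1 from 129592047 to 129592660, and that between Klrd1 and Klrk1 from 129608900 to 129609951.
Cd69 upstream, chr6:129285099-129285398: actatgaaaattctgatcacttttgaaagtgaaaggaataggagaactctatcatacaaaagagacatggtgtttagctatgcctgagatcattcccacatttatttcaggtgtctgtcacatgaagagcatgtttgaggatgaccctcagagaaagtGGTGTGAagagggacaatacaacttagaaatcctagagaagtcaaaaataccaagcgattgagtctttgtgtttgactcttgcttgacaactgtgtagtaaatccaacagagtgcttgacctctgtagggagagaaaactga
Klrd1 5′ end, chr6:129592203-129592502: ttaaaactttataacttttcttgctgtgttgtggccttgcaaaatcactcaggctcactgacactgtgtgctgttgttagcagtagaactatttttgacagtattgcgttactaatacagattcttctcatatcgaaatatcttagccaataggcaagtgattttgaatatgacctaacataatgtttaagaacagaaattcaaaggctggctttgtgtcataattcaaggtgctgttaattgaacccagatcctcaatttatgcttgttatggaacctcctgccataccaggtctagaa
Between Klrd1 and Klrk1, chr6:129609275-129609574: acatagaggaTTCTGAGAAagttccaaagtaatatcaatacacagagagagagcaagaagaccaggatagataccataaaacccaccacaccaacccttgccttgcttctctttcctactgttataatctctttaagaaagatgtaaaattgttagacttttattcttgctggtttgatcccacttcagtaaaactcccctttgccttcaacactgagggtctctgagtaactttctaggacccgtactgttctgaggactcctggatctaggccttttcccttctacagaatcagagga
Motifs of 5 factor families of killer cell genes were searched on both strands: RUNX (TGTGGTT), T-box (GGTGTGA), ETS (AGGAAGT), STAT (TTCNNNGAA) and AP-1 (TGANTCA). The capitals upstream of Cd69 mark a T-box match, a motif found in 3.73% of the like windows of 3085 regions called in all 5 libraries, and those between Klrd1 and Klrk1 mark a STAT match, found in 8.56% of them. The Klrd1 window held none of the 5, and RUNX, ETS and AP-1 letters, found in 7.10%, 13.3% and 6.68% of all windows, were in none of the 3. A match describes the letters and not a bound site. The AP-1 and STAT motifs read the same on both strands and were counted once.

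CD94 pairs with every NKG2 chain that signals through Qa-1, and its gene Klrd1, on the plus strand at chr6:129591782-129598775, had 3, 2, 1, 1 and 2 peaks in its window in WT replicates 1 and 2 and TPdh-/- replicates 1, 2 and 3. The peak at its 5′ end was 2159 bp wide in WT replicate 1 and 1761 bp in TPdh-/- replicate 3, and in both it covered the start site. In WT replicate 2 and TPdh-/- replicates 1 and 2 it was 946, 776 and 688 bp wide and began 72, 60 and 222 bp from the nearest start site, within an intron and touching no exon. Its fold enrichment, the ratio of signal over the background that MACS2 estimated, was 2.17, 1.98, 2.16, 2.14 and 2.05 in the same order of libraries. Ranked by −log10 q within each list, where 1 is the strongest peak, it was number 2124 of 15962 and 5984 of 8859 in WT replicates 1 and 2, and 3415 of 4920, 3180 of 5419 and 4379 of 9418 in TPdh-/- replicates 1, 2 and 3. As percentiles of the lists, with 100% at the strongest peak, these ranks were 86.7% and 32.5% in WT and 30.6%, 41.3% and 53.5% in TPdh-/-. WT replicate 1 lay highest and the other WT library lay among the TPdh-/- ones, so the groups overlapped. The WT mean was 59.6% ± 38.4 (SD, n = 2) and the TPdh-/- mean 41.8% ± 11.5 (SD, n = 3), with p = 0.6 in a two-sided exact permutation test over the 10 arrangements of the libraries, which cannot give less than 0.2. Without WT replicate 1 the difference of WT minus TPdh-/- turned from 17.8 to -9.35 percentage points.

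Klrk1 is read from the minus strand at chr6:129610323-129623864, so that its 3′ end faces that of Klrd1. The region between these genes, chr6:129607948-129610254, ended 69 to 372 bp short of the Klrk1 gene body and overlapped no protein-coding gene. It was the region of the 8 that ranked highest on average, at 85.5% and 83.3% in WT replicates 1 and 2 and at 89.2%, 75.4% and 85.6% in TPdh-/- replicates 1, 2 and 3. Over the 3099 regions called in all 5 libraries the median percentile was 84.8%, 75.2%, 61.6%, 64.3% and 76.1%. The region at the 5′ end of Klrd1 was above that median in WT replicate 1 alone, and that upstream of Cd69 in WT replicate 2 alone. The region between Klrd1 and Klrk1 lay within 1 percentage point of it in WT replicate 1 and above it in the other 4 libraries. The WT mean of 84.4% ± 1.59 (SD, n = 2) and the TPdh-/- mean of 83.4% ± 7.19 (SD, n = 3) differed by less than the spread between libraries (exact permutation test, two-sided, p = 1). That order depended on the list length and the ranking. With lists of equal length WT was lower without overlap, by a difference of -16.7 percentage points. With ranks by fold it was lower without overlap too, by -15.7 (exact permutation test, two-sided, p = 0.2 for each). The share of all regions with such an order under either setting was not counted. In the full lists ranked by −log10 q, both WT libraries were above every TPdh-/- one in 29.5% of regions called in all 5 libraries. They were below every one in 1.45%. None of the 3 lectin receptor regions had either pattern in the full lists.

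The fold and width of that region did part the groups. Fold enrichment was 1.98 and 2.12 in WT and 2.56, 2.24 and 2.29 in TPdh-/-, with both WT values below every TPdh-/- value. The mean was 2.05 ± 0.0974 (SD, n = 2) against 2.37 ± 0.174 (SD, n = 3), at the smallest p the libraries allow (exact permutation test, two-sided, p = 0.2). The same order was found in 11.6% of the regions called in all 5 libraries. The WT peaks there were 2307 and 1536 bp wide and the TPdh-/- peaks 1116, 1144 and 1302 bp, again without overlap (exact permutation test, two-sided, p = 0.2), as in 33.5% of those regions. Over all of them the median width was 1562 and 1242 bp for the WT libraries and 963, 1010 and 1297 bp for the TPdh-/- ones, so that TPdh-/- replicate 3 exceeded WT replicate 2. The part of list length in the width of the region was not tested. Only in WT replicates 1 and 2 and TPdh-/- replicate 3 did the peak reach into the 10 kb window of Klrd1, and in TPdh-/- replicates 1 and 2 it began 10125 and 10033 bp past that gene.

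The start site of Klrk1 was called in WT replicate 1 and in TPdh-/- replicates 2 and 3, at percentiles of 19.9%, 2.32% and 58.1% and folds of 1.70, 1.93 and 2.09. These were among the weaker peaks of their lists except in TPdh-/- replicate 3. The RefSeq promoter of the gene, a window of 300 bases mostly before its outermost start, lies at chr6:129623815-129624114 and is printed on the minus strand because this region was called in some libraries and not in others.
Klrk1 promoter: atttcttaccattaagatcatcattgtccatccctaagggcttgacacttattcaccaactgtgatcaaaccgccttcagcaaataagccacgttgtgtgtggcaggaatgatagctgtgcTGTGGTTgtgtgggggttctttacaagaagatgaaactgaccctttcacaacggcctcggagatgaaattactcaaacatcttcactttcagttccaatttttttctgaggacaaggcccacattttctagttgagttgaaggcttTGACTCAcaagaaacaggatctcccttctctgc
Its capitals mark a RUNX match at position 122 and an AP-1 match at position 268, counted from 1 at the 5′ end, and these motifs occur in 5.27% and 7.81% of the 32851 RefSeq promoters of GRCm38.p6. The peak of TPdh-/- replicate 3 covered all 300 bases and that of WT replicate 1 covered 154, while that of TPdh-/- replicate 2 ended before them, over one of the inner start sites among the 6 annotated. RefSeq promoters were matched for Klrk1, Klrc1, Klrc2 and Klrb1c, and not for Klrg1, Klrd1 and Cd69.

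**Figure D1:**
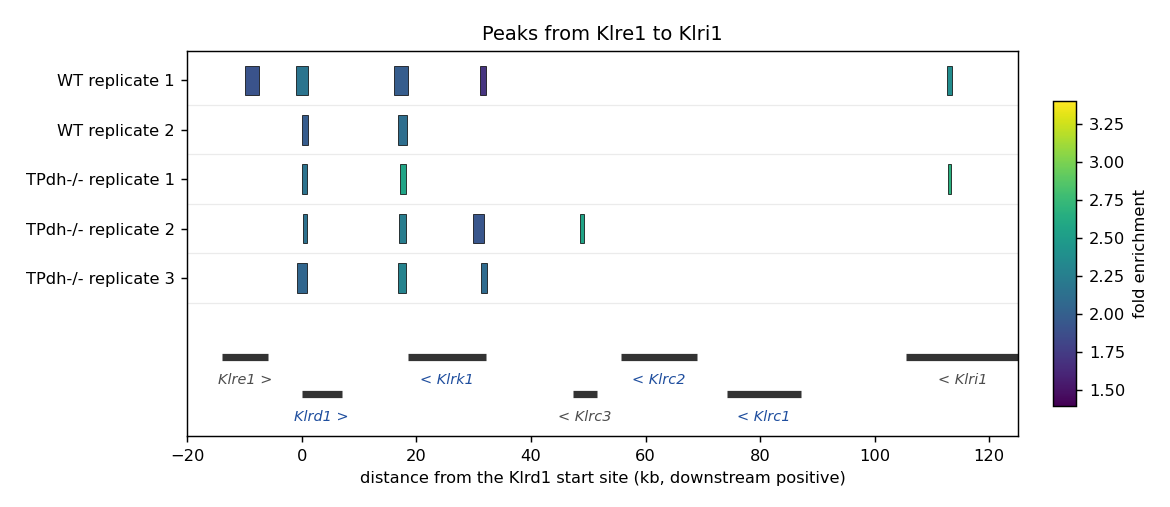
Peaks of the 5 libraries from Klre1 to Klri1 by distance from the Klrd1 start site in kb, coloured by fold enrichment, with gene bodies below and arrowheads for their strand. All 5 libraries have a peak at the 5′ end of Klrd1 and before the 3′ end of Klrk1, and no library has one over the bodies of Klrc2 and Klrc1.

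Klrc1 and Klrc2, the genes of the NKG2 chains that pair with CD94, were without a peak over their gene bodies in every library. Klrc1, at chr6:129666015-129678973 on the minus strand, had its nearest peak 25.5 and 55.8 kb away in WT replicates 1 and 2 and 25.6, 24.9 and 41.9 kb away in TPdh-/- replicates 1, 2 and 3. Klrc2, at chr6:129647496-129660689 on the same strand, had 1 peak in its window in TPdh-/- replicate 2. That peak was 778 bp wide with a fold of 2.56, ranked at 15.8%, and lay 6.42 kb past the 3′ end of Klrc2 over the body of Klrc3, a further NKG2 gene. In the other 4 libraries the nearest peak to Klrc2 was 23.4 to 37.5 kb away. These genes are close copies of their neighbours, and only uniquely mapping reads were kept. Of the 51-base words of their bodies, 52.3% were found once in the genome for Klrc1 and 47.1% for Klrc2, against 90.1% to 99.7% for the other 5 genes. The part of lost reads in the missing peaks was not tested, as the lists hold no reads.

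**Figure D2:**
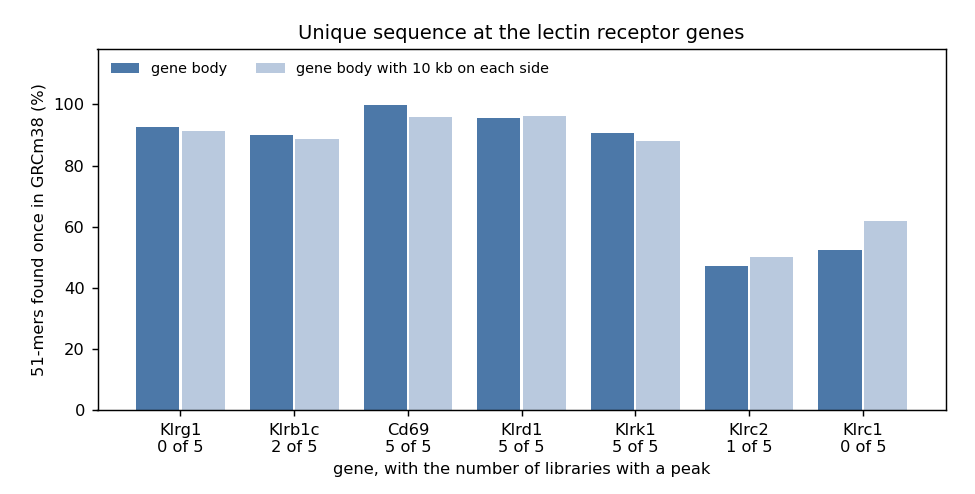
Share of 51-base words found once in GRCm38, in percent, for each gene body (dark) and for the body with 10 kb on each side (light), with the number of libraries with a peak under each name. Klrc2 and Klrc1 hold the least unique sequence, at 47.1% and 52.3% of the body, while Klrg1, also without a peak, holds 92.7%.

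Klrg1, at chr6:122270596-122282882 on the minus strand, had no peak within 10 kb in any library. Its nearest peak lay upstream at the start of M6pr, a gene of lysosomal sorting, at 25.9 and 26.0 kb in WT replicates 1 and 2 and 25.9 and 26.0 kb in TPdh-/- replicates 1 and 3. In TPdh-/- replicate 2 it lay 319 kb away. Of the 51-base words of the Klrg1 window, 91.3% were found once in the genome. A gene without a peak is one below the calling threshold of the authors, and weak acetylation was not detectable from the lists.

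Klrb1c, the NK1.1 gene at chr6:128778485-128789215 on the minus strand, had a peak upstream in WT replicate 1 and TPdh-/- replicate 3. The first was 2627 bp wide with a fold of 2.10 and ranked at 33.4%, and the second was 675 bp wide with a fold of 2.28 and ranked at 30.4%. They lay 7.71 and 9.80 kb from the gene, over the predicted gene Gm44511, and neither covered the Klrb1c start site. In WT replicate 2 and TPdh-/- replicates 1 and 2 the nearest peaks were 46.6, 49.5 and 241 kb away. Both libraries with the peak were the longest lists of their genotype.

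Cd69, at chr6:129267325-129275436 on the minus strand, had 2, 2, 1, 2 and 2 peaks in WT replicates 1 and 2 and TPdh-/- replicates 1, 2 and 3. The upstream region, chr6:129283226-129285746, was called in all 5 libraries and its 5 peaks had midpoints between 9026 and 9927 bp before the start site. It ranked at 55.0% and 80.6% in WT and at 43.3%, 62.9% and 68.1% in TPdh-/-, with folds of 2.02 and 2.46 in WT and 2.34, 2.25 and 2.26 in TPdh-/-. By percentile, WT replicate 2 lay above all TPdh-/- values and WT replicate 1 among them, whereas by fold WT replicate 2 lay above and WT replicate 1 below all of them. The mean percentile of WT was 67.8% ± 18.1 (SD, n = 2) and that of TPdh-/- 58.1% ± 13.1 (SD, n = 3) (exact permutation test, two-sided, p = 0.6), and the difference turned from 9.71 to -3.06 percentage points without WT replicate 2.

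The start site of Cd69 itself was covered in 4 libraries and not in TPdh-/- replicate 1. There the peaks ranked at 39.3% and 9.65% in WT replicates 1 and 2 and at 8.15% and 36.3% in TPdh-/- replicates 2 and 3, with folds of 1.90, 1.93, 2.06 and 2.03. In each of these 4 libraries the start site ranked below the upstream region. The libraries with the higher ranks were again the longest list of each genotype.

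**Figure D3:**
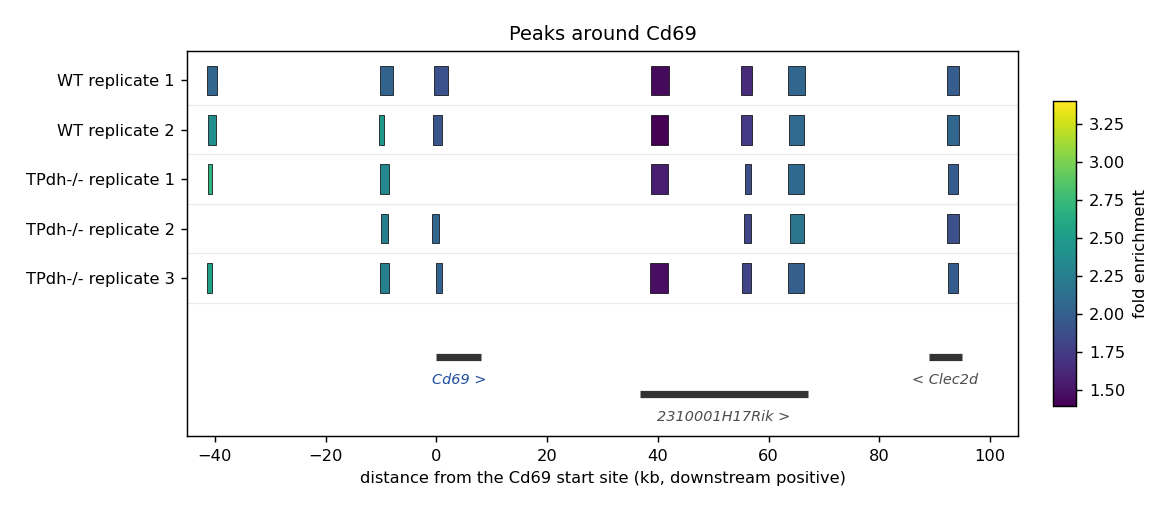
Peaks of the 5 libraries around Cd69 by distance from its start site in kb, downstream positive, coloured by fold enrichment. The peak about 9 kb upstream is present in all 5 libraries and the peak at the start site in 4, all but TPdh-/- replicate 1.

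**Figure D4:**
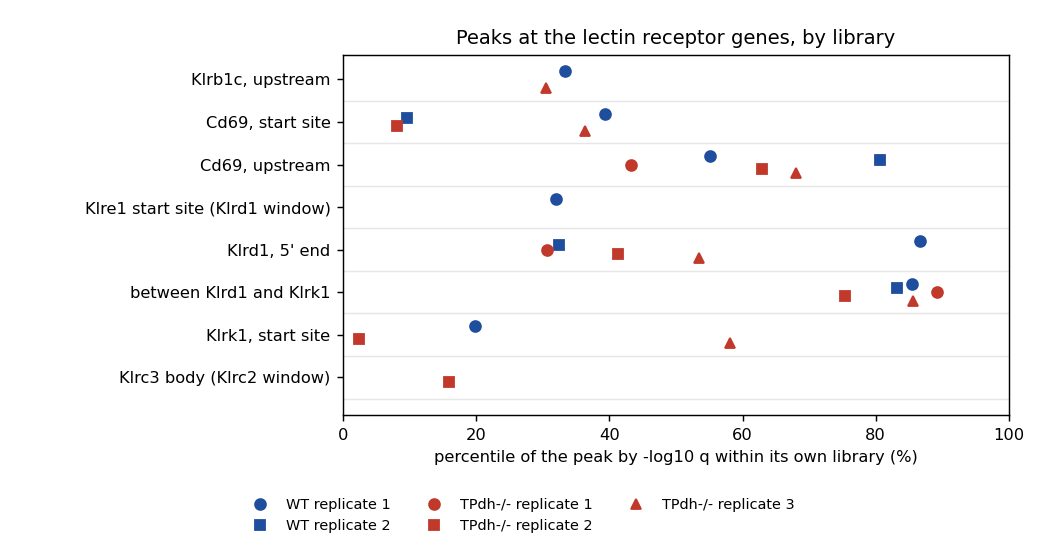
Percentile by −log10 q within its own library, in percent, of the strongest peak in each of the 8 regions, with WT libraries in blue and TPdh-/- libraries in red. The region between Klrd1 and Klrk1 ranks from 75.4% to 89.2% in all 5 libraries, whereas the start site of Klrk1 ranges from 2.32% to 58.1% in the 3 libraries that have it.

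Peaks at the lectin receptor genes were low and mostly wide. Counting a peak shared by neighbouring windows once, there were 7 and 4 peaks in WT and 3, 6 and 6 in TPdh-/-, with a mean of 5.5 ± 2.12 (SD, n = 2) against 5 ± 1.73 (SD, n = 3). These 26 peaks came from 8 regions, each counted in up to 5 libraries, and are not independent of each other. All 26 had a fold below the median of their own list, with folds of 1.70 to 2.56 and fold percentiles of 2.43% to 48.2%. In width, 18 of the 26 were above the median of their list, and the range was 675 to 2627 bp. Over whole lists, fold and width ran weakly opposite, with Spearman's rho across peaks of -0.27 to -0.18 in the 5 libraries. The median width of the member peaks was at the 95.6 percentile of WT replicate 1, and at 64.8, 70.3, 71.7 and 63.6 in WT replicate 2 and TPdh-/- replicates 1, 2 and 3. Low fold and large width were not particular to these genes. Over all peaks of the natural killer gene complex, median folds were 2.04, 2.06, 2.21, 2.16 and 2.09 in the same order of libraries. The medians of the whole lists were 2.40, 2.54, 2.65, 2.58 and 2.48. Median widths in the complex were 1896.5, 1659, 1103, 1282 and 1207 bp, against 1150, 987, 855, 896 and 1025.5 bp for the lists. Member peaks covered 15.0 and 4.57 kb of the 195 kb of windows in WT and 3.28, 6.88 and 6.87 kb in TPdh-/-. The mean was 9.76 ± 7.34 kb (SD, n = 2) against 5.68 ± 2.08 kb (SD, n = 3), and the WT mean rested on replicate 1.

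**Figure D5:**
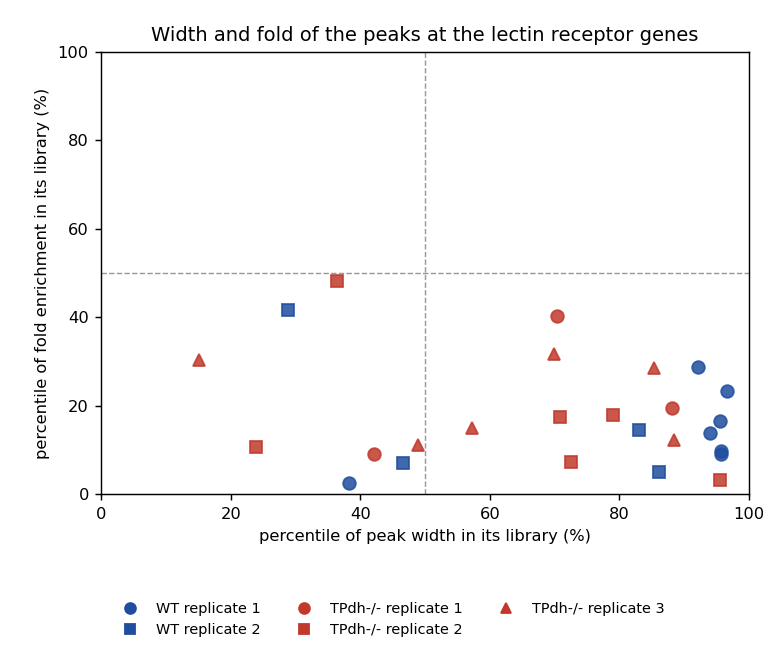
Percentile of fold enrichment against percentile of width, each within its own library and in percent, for the 26 distinct peaks at the lectin receptor genes. The peaks come from 8 regions, so a region called in several libraries gives several points. All 26 points lie below the dashed line at the median fold, and 18 lie to the right of the median width.

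The regions were also poor in G and C. Their GC content ran from 32.9% at the Klrk1 start site to 47.0% upstream of Klrb1c with a median of 39.6%, where the median of all 18410 merged regions was 49.9%. The ratio of observed to expected CpG had a median of 0.169 over the 8 regions and of 0.302 over all regions. It was lowest, at 0.0537, between Klrd1 and Klrk1 and highest, at 0.560, upstream of Klrb1c. Regions called in all 5 libraries had a median ratio of 0.552, and the 3 of them at the lectin receptor genes had ratios of 0.178, 0.121 and 0.0537.

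Other lectin genes of chromosome 6 were counted by the same rule, from lists drawn up with earlier results of these data known. All lie in the natural killer gene complex but Clec2l, far from it at chr6:38663069-38680864, which had a peak in WT replicate 1 alone. Of 33 annotated genes, 11, 5, 4, 5 and 4 had a peak in WT replicates 1 and 2 and TPdh-/- replicates 1, 2 and 3, and 19 had none in any library. The shares of all protein-coding genes in that order were 54%, 36.4%, 23.2%, 24.6% and 39.2%. Klre1, Klri2 and Clec2d were called in all 5. For Klre1 the peak common to all was the one at the 5′ end of Klrd1, and its own start site was covered in WT replicate 1 alone. Of the Klra genes, which encode the Ly49 receptors of mouse natural killer cells, Klra5 and Klra6 had a peak in WT replicate 1 alone and the other 9 had none, with 53.1% to 95.7% of their bodies unique. Of 7 natural killer cell markers, 3, 2, 1, 1 and 3 had a peak in the 5 libraries. Klri2 had one in all 5, Tyrobp in 3 and Klrb1c in 2, and Ncr1, Klra4, Klra7 and Klra8 had none. Klrb1c is also one of the 7 genes examined, and Klri2 and the Klra genes are among the 33, so these counts are not independent.

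Genes acting downstream of the receptors were counted in the same way. Of 15 adaptor and signalling genes, 15, 11, 7, 9 and 12 had a peak in the 5 libraries in the same order, beside 54%, 36.4%, 23.2%, 24.6% and 39.2% of all protein-coding genes, and the difference from the lectin genes was not tested. Zap70, Fyn, Lck, Plcg1, Ptpn6 and Inpp5d had one in all 5. Ptpn6 and Inpp5d encode phosphatases that inhibitory receptors such as NKG2A and Klrg1 recruit, and they ranked from 51.2% to 85.6% and from 15.4% to 89.9%. The adaptor genes Hcst, whose product DAP10 carries the signal of NKG2D, and Tyrobp, which encodes DAP12, are neighbours that shared a peak in both WT libraries and TPdh-/- replicate 3, at 5.96%, 4.55% and 18.6%. It covered the start site of Hcst and not that of Tyrobp.

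Of 10 annotated genes of ligands and partners, 7, 6, 4, 3 and 5 had a peak, beside 54%, 36.4%, 23.2%, 24.6% and 39.2% of all protein-coding genes. B2m, the light chain of MHC class I, ranked from 79.6% to 90.2% in all 5 libraries, and S1pr1, the partner of Cd69, from 11.2% to 69.1%. H2-T23, which encodes Qa-1, was called in WT replicate 1 and all 3 TPdh-/- libraries. H60b, a ligand gene of NKG2D, was called in the WT libraries alone, at 62.1% and 11.7%, the pattern of 2.92% of all protein-coding genes. No library had a peak over the H60b start site. The annotated body of H60b, chr10:22158586-22288849, lies within that of Raet1e, which was called in TPdh-/- replicate 3 as well. Both genes had the same percentile in WT replicate 1. Of 13 transcription factor genes, 12, 7, 5, 2 and 10 had a peak, to be read beside the same shares of all protein-coding genes. Runx1 had one in all 5 libraries, at 49.7% to 73.9%. Tbx21, the gene of T-bet, had none in any library, and Eomes had one in WT replicate 1 alone, at 12.3%.

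Markers of other cells were not all free of peaks. Of 5 B cell markers, 3, 1, 1, 1 and 2 had a peak, of 5 myeloid markers 2, 2, 2, 1 and 2, and of 3 CD4 T cell markers 3, 2, 0, 0 and 1. Of all protein-coding genes, 54%, 36.4%, 23.2%, 24.6% and 39.2% had one in the same order of libraries. Cd79a and Cd14 had one in all 5 libraries within 10 kb, but in none did it cover their start sites, and Ms4a1, Cd79b, Lyz2, Csf1r and Adgre1 had none. The part of other cells in the lectin receptor peaks was not tested.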

How the data were processed

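Peak lists of 5 ChIPseq libraries of acetylated histones in T_M cells were used, with 2 libraries of WT and 3 of TPdh-/-. The authors checked reads of 51 bases with FastQC 0.11.9, aligned them to GRCm38/mm10 with BWA-mem 0.7.17, kept unique reads and removed blacklisted ones with Samtools 1.15.1, and called broad peaks per library with MACS2 2.2.6. An input control is not given in the sources used here. The deposited values are a fold enrichment, which is a linear ratio, with a −log10 p and a −log10 q that the authors took from MACS2. A deposited score column was not used. The depth is unknown, so no counting interval is given, and the DiffBind comparison of reads was not redone.

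Gene bodies came from the GENCODE annotation of GRCm38. Peaks were joined into regions where they shared at least 1 bp, and the strongest peak of a region was ranked within its list. Python 3.11.15, numpy 2.4.6 and pandas 2.3.3 were used. On simulated lists, the presence or absence put in for each library was returned at all 500 windows. Peaks were placed within the flank, so this checks the counting alone. Groups were compared by an exact permutation test, with the smaller one-sided p doubled to give a two-sided value. This was done for each of the 3 lectin receptor regions called in all 5 libraries. Among the 3099 regions called in all 5, orders without overlap were counted and not tested. No p was given for counts over the genes. All 7 genes are named, and of other lists at most 8 genes with a peak. These were not always those called in most libraries, and some genes called in more libraries are not named. Genes named for having no peak were chosen after their values were seen.

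The genes and lists were chosen with earlier results of these data known, and the motifs, the comparison with list medians and the RefSeq gene bodies after the data were seen. Alternatives were flanks of 0, 3 and 50 kb, lists cut at −log10 q values of 2 and 5 or to equal length, peak midpoints, the nearest start site, ranks by fold, the replicate block, and leaving out each library.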

Additional observations from a re-analysis of the deposited data

How the results depend on the processing

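The mean number of lectin receptor genes with a peak was lower in WT by 0.167 genes (WT minus TPdh-/- of -0.167), and this sign was not stable. It was 0.333 with a 3 kb flank, 0.167 with no flank, with 50 kb, with midpoints, with the nearest start site and with RefSeq gene bodies, 0.5 at a −log10 q of at least 2, 1.5 at 5 and -0.833 with lists of equal length. It ran from -0.667 to 0.333 when each library was left out. The difference in distinct peaks was 0.5, 4.17 with 50 kb, -1.67 with lists of equal length and -1 to 2 when each library was left out. The difference in covered length was 4.09 kb, 11.8 kb with 50 kb, -1.02 kb with lists of equal length and -1.10 to 9.28 kb when each library was left out, lowest without WT replicate 1 and highest without WT replicate 2. For Klrb1c the difference in the share of libraries with a peak was 16.7 percentage points and -33.3 without WT replicate 1, with 66.7 as the highest value.

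The percentile difference was 9.71 upstream of Cd69 (-3.06 to 22.5 when each library was left out) and 17.8 at Klrd1 (-9.35 to 44.9). Between Klrd1 and Klrk1 it was 0.990, with -3.02 to 3.91 when each library was left out. It was -15.7 with ranks by fold and -16.7 with lists of equal length, and in both the groups did not overlap (two-sided p = 0.2 by exact permutation). The share of all regions parted in that way under these settings was not counted. Lists of equal length gave no value for the other 2 regions. With the replicate block, which keeps replicates 1 and 2 of both genotypes, these differences were 14.7, 23.6 and 2.08, and no direction changed. The block has the same values as leaving out TPdh-/- replicate 3 and is no separate check. Whether the numbers pair the libraries is not in the labels. Of the values for single genes, 87 moved by less than the spread between libraries or not at all, 10 moved by more and 1 reversed, that of Klrb1c. Many could not move, since genes called in all or no libraries keep their value when a library is left out. For Klrc2 and Klrb1c the spread was 47.1 and 62.4 percentage points. The loss of the only Klrc2 peak with a 3 kb flank, from -33.3 to 0, was thus counted among the 87. The cause of the changes was not tested. The lists hold no reads, so the depth behind a missing peak is unknown.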

Other observations

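The natural killer gene complex, taken from Klrb1a to Klra2 over 2.64 Mb, held 28 and 14 peaks in WT replicates 1 and 2 and 12, 12 and 17 in TPdh-/- replicates 1, 2 and 3. These merged into 30 regions, and 8 of them were called in all 5 libraries, or 26.7% where the share of all 18410 regions was 16.8%. Besides the 3 described, they lay near the start of Clec2d, at 2 places over the long noncoding transcript 2310001H17Rik between Clec2d and Cd69, at the promoter of the autophagy gene Gabarapl1, and 6840 bp from the start of Klri2. The stronger of the places over 2310001H17Rik, chr6:129208907-129212039, ranked at 97.8% and 96.1% in WT and at 82.0%, 95.3% and 91.6% in TPdh-/-, above every region at the lectin receptor genes except that between Klrd1 and Klrk1 in TPdh-/- replicate 1. The region beside Klri2, chr6:129745861-129748788, ranked at 73.0% and 54.6% in WT and at 77.6%, 18.8% and 35.3% in TPdh-/-, with overlap of the groups. From Clec12a to Olr1, where the dendritic and myeloid lectin genes of the complex lie, no gene had a peak within 10 kb in any library.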
